A study of Mus musculus with 4 samples.

Results

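The genes of ribosomal RNA transcription were followed in single haematopoietic stem cells (HSC) of mouse bone marrow. They were the 45S ribosomal RNA precursor (Rn45s), 5 genes of RNA polymerase I subunits (Polr1a, Polr1b, Polr1c, Polr1d and Polr1e), the initiation factor genes Ubtf and Rrn3, and the nucleolar protein genes Ncl (nucleolin) and Npm1 (nucleophosmin). These 10 genes were taken by name, not by their values, from the 24411 gene rows of the count tables, and all 10 were present. Earlier results of these data were known when they were chosen. The cells came from Mat KO animals (2 libraries, 44 and 48 cells) and from wild-type (WT) animals (2 libraries, 48 cells each). The study's title concerns small nucleolar RNAs of the imprinted Dlk1-Gtl2 locus in HSC self-renewal, by way of rRNA modification and translation. The labels give the genotypes as Mat KO and wildtype without the deleted segment, and give no age, sex or strain. Whether both libraries of a genotype are separate animals was not stated either, so p-values measure only the spread between libraries, which may be technical.

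RNA polymerase I transcribes the ribosomal DNA repeats in the nucleolus into a single precursor, which is cut and modified into the 18S, 5.8S and 28S rRNAs. The upstream binding factor encoded by Ubtf shapes the rDNA promoter, and the factor encoded by Rrn3 (TIF-IA) joins the polymerase to it and ties initiation to growth signals. Nucleolin and nucleophosmin are abundant nucleolar proteins that act in rRNA transcription, processing and ribosome assembly. Adult HSC are mostly quiescent and are known for a low rate of protein synthesis.

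Cells were sorted, picked singly and read with a modified STRT-seq method, in which an oligo-dT primer tags each cDNA with its cell and with a molecular identifier (UMI). The precursor is not a polyadenylated mRNA, so its UMIs measure what such a primer captured of it, and its level cannot be set against that of the protein-coding genes. Kept cells held 1900319 and 1768647 gene UMIs in Mat KO libraries, against 3183279 and 3253608 in WT libraries, where the first value of a genotype is its replicate 1 and the second its replicate 2. The same cells held 1978767 and 2008471 UMIs of the synthetic ERCC spike-in RNAs in Mat KO libraries, against 2676501 and 2337297 in WT libraries. All 10 long-term HSC markers were detected in every library, and at least 1 of them in all cells but 1. They held 0.122% and 0.150% of UMIs in Mat KO libraries against 0.168% and 0.141% in WT libraries. Granulocyte and monocyte markers were likewise found in every kept cell, so detection alone does not tell these lists apart. In the median cell HSC markers held 0.156% and 0.155% against 0.170% and 0.156%, and granulocyte and monocyte markers 0.455% and 0.0684% against 0.0971% and 0.0706%. Granulocyte and monocyte markers held 3.15% and 0.548% of UMIs in Mat KO libraries against 0.641% and 0.325% in WT libraries, with 8 to 10 of 10 detected. B-lymphoid markers (7 of 7 detected) held 0.117% and 0.109% against 0.107% and 0.0436%. T and NK markers held at most 0.0238% of UMIs, with Cd3e at 0 UMIs throughout. Of the 4 with a row, 2 and 2 were detected in Mat KO libraries against 2 and 3 in WT libraries. At least 1 of them was found in 22 and 17 cells against 11 and 23. Erythroid markers held at most 0.0497%, with Hba-a1, Hbb-bt and Hbb-bs at 0. Of these 6 markers, 2 and 0 were detected in Mat KO libraries against 1 and 3 in WT libraries. They were found in 5 and 0 cells against 3 and 27, most of them in WT replicate 2.

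The same barcode numbers were used in every library, 44 of them with a kept cell in all 4. Spike-in UMIs of a barcode number correlated between libraries with a Spearman rho of 0.82 to 0.94, although different cells sat behind them. Rn45s UMIs per ERCC UMI correlated between libraries in the same way with a rho of 0.22 to 0.42, and Rn45s UMIs relative to those of all other genes with 0.34 to 0.68. Part of the variation from cell to cell thus went with the barcode number, which is the same in both genotypes. Within a library the cell with the most spike-in UMIs had 11.0 to 15.2 times those of the cell with the fewest.

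Rn45s was present in every kept cell, and its amount per cell overlapped between the genotypes. The median was 2828 and 3350.5 UMIs per cell in Mat KO libraries, against 3014 and 3195 in WT libraries. Set against the spike-ins, the median was 5641 and 7707 Rn45s UMIs per 100000 ERCC UMIs in Mat KO libraries, against 5083 and 6784 in WT libraries. The libraries interleaved, with each replicate 2 above both replicates 1, and the log2 ratio of the genotype means was 0.17 (exact two-sided permutation p = 0.667, n = 2 libraries each). The smallest p that 2 libraries against 2 can give is 0.333, so no value per library could pass 0.05. Summed over cells, Rn45s stood at 6223 and 7826 against 5248 and 6889 per 100000 ERCC UMIs, again with overlap. The interquartile range over cells was 4084 to 7259 and 6761 to 9225 in Mat KO libraries, and 3559 to 6439 and 5110 to 9025 in WT libraries.

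The share of gene UMIs taken by Rn45s was higher in Mat KO. Its median over cells was 8.13% and 10.3% in Mat KO libraries, against 5.44% and 6.61% in WT libraries, with both Mat KO libraries above both WT ones (p = 0.333 by exact permutation, again the smallest possible). In sums per library Rn45s had 64799 and 88876 CPM (UMIs relative to all gene UMIs of a library) in Mat KO libraries, against 44123 and 49491 in WT libraries. Its log2 fold change was 0.75 (SE 0.12) and missed the 0.05 threshold of edgeR's quasi-likelihood test (adjusted p = 0.0759 after Benjamini-Hochberg), with the 9th smallest p of 10663 genes. Of these genes 8 passed, 0.075% of those tested, with 834 at an unadjusted p under 0.05. Rn45s did pass in DESeq2 (log2 fold change 0.77, adjusted p = 0.00804), which called 1.13% of genes, and in 6 of the 14 other alternatives. Among these were the fits without Mat KO replicate 1 (0.97, adjusted p = 1.89e-16 by edgeR) and without Mat KO replicate 2 (0.48, adjusted p = 1.83e-09), in which the lone Mat KO library was assumed to vary like WT. With library sizes set to the spike-ins its log2 fold change was 0.21 (SE 0.11, adjusted p = 0.360 by edgeR). Taken as a sum, UMIs of genes other than Rn45s were lower, at 89.8 and 80.2 per 100 ERCC UMIs in Mat KO libraries, against 114 and 132 in WT libraries. The median cell had 60555 and 63436 such UMIs per 100000 ERCC UMIs in Mat KO libraries, against 83279 and 96506 in WT libraries.

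**Figure D1:**
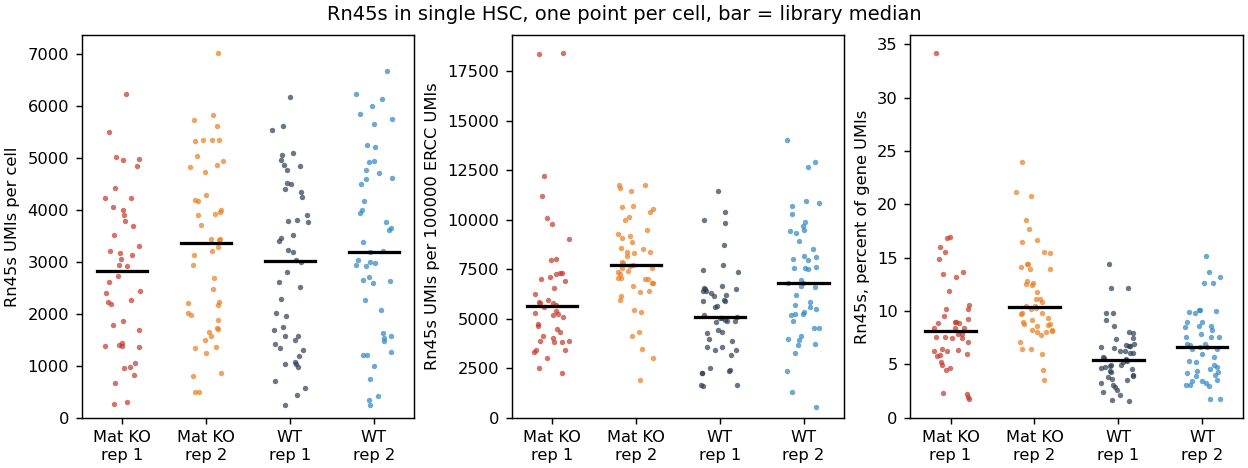
Rn45s in each kept cell as UMIs (left), as UMIs per 100000 ERCC UMIs (middle) and as percent of gene UMIs (right), with 1 point per cell and a bar at each library's median. Medians lie at 2828 and 3350.5 UMIs in Mat KO libraries, and 3014 and 3195 in WT libraries, while the percent of gene UMIs lies at 8.13% and 10.3% in Mat KO libraries, and 5.44% and 6.61% in WT libraries.

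Depth moved with the Rn45s share. Within each library, cells with more UMIs of other genes had a smaller Rn45s share, with a Spearman rho of -0.68 and -0.75 in Mat KO libraries, and -0.73 and -0.78 in WT libraries, where both quantities share the UMIs of the other genes. Median depth was 33612.5 and 27845 UMIs per cell in Mat KO libraries against 53092.5 and 51437 in WT libraries. Among cells with 20000 to 60000 UMIs of other genes, a range chosen after seeing the data, the median share was 8.41% and 9.76% in Mat KO (21 and 23 cells) against 6.23% and 7.54% in WT libraries (12 and 18 cells). The genotypes still did not overlap there, and the log2 ratio of the means was 0.40 in place of 0.62. In those cells Rn45s had a median of 3161 and 3996 UMIs in Mat KO libraries against 2658 and 2981 in WT libraries. Per ERCC UMI the libraries interleaved there too, at 5921 and 8296 in Mat KO libraries against 4966 and 6784 per 100000 in WT libraries.

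**Figure D2:**
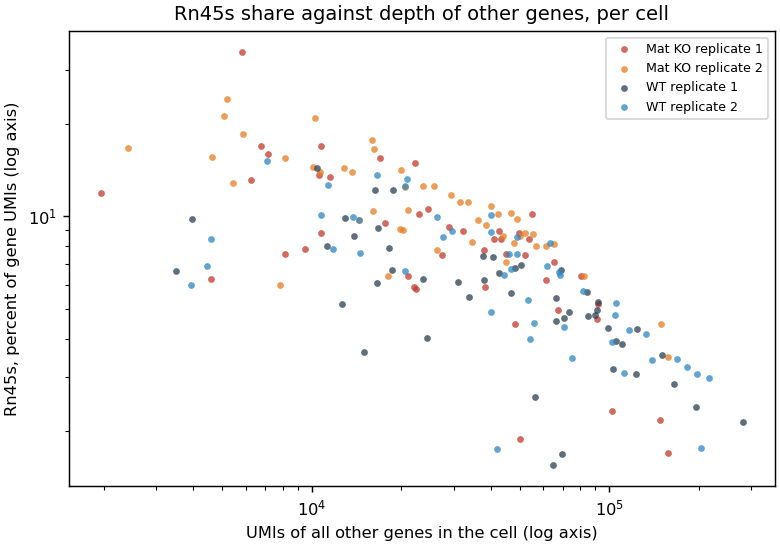
Percent of gene UMIs from Rn45s (log axis) against the UMIs of all other genes (log axis), with 1 point per kept cell coloured by library. The share is smaller in deeper cells of every library, and shallow cells are more frequent in Mat KO, whose median depth was 33612.5 and 27845 UMIs against 53092.5 and 51437 in WT libraries.

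Some cells carried markers of mature blood lineages, and these were set apart with limits of 1% of UMIs for granulocyte and monocyte markers and 0.2% for each other list. This left 27 and 42 lineage-low cells in Mat KO libraries, and 41 and 42 in WT libraries. In these the Rn45s share was 8.42% and 11.0% in Mat KO libraries against 5.27% and 6.71% in WT libraries, and Rn45s passed edgeR's test (log2 fold change 0.94, adjusted p = 0.000239, among 0.0496% of 10071 genes called). Per ERCC UMI the medians of lineage-low cells were 5772 and 7778 in Mat KO libraries against 5027 and 6707 per 100000 in WT libraries, so the order of the libraries was that of all kept cells. The median Rn45s shares of B-lymphoid marker cells were 6.32% (6 cells) and 8.26% (3 cells) in Mat KO libraries against 6.69% (5 cells) and 2.98% (1 cell) in WT. Per 100000 ERCC UMIs the B-lymphoid marker cells had medians of 6867 and 9198 in Mat KO libraries against 8726 and 12680 in WT libraries. On that scale they lay above the lineage-low cells of the same library in each case. So did their UMIs of other genes, at medians of 79.2 and 103 per 100 ERCC UMIs in Mat KO libraries, and 154 and 412 in WT libraries. Lineage-low cells had 60.6 and 61.0 in Mat KO libraries, and 77.9 and 93.1 in WT libraries. Both erythroid marker cells were in WT replicate 2. Their median was 11077 Rn45s UMIs per 100000 ERCC UMIs, above the 6707 of the lineage-low cells there. Their median Rn45s share was 3.44%, below the 6.71% of those lineage-low cells.

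Upstream sequence, 13 windows in all, was read for 8 of the 10 genes from RefSeq (GRCm38.p6). The E-box CACGTG, which Myc and Max are known to bind, reads the same on both strands and lay within 250 bases upstream of the start in Rrn3 alone of these 8, and in 6.02% of 32817 upstream windows of all genes. The ETS-type motif CCGGAAG, on either strand, was found upstream of Polr1c alone of these 8, and in 6.90% of windows. Windows of 150 bases are shown for 3 genes, those of Rrn3 and Polr1c, which hold these motifs, and that of Ncl, which holds neither. Capitals mark the motif, and each window ends at the base before the start that RefSeq gives, which for Ncl lies outside the GENCODE M21 gene span given further on. They lie at chr16:13780549-13780698, plus strand; chr17:46248046-46248195, minus strand; and chr1:86359456-86359605, minus strand.
Rrn3: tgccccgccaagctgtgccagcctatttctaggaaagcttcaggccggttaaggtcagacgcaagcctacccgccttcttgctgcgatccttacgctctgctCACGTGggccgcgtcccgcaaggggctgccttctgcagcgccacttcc
Polr1c: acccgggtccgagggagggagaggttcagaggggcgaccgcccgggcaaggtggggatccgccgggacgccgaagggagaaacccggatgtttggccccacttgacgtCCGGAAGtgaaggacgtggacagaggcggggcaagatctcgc
Ncl: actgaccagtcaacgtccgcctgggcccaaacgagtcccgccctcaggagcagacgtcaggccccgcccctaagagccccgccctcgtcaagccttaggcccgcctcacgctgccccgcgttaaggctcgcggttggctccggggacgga
In Rrn3 the motif begins 48 bases before the start, and in Polr1c 42 bases before it. The 250 bases upstream of Ncl and Polr1c held 69.6% and 70.4% G or C, against a median of 52.4% over all windows, and those of Rrn3 59.6% and of Polr1e 53.2%. A match describes these letters and not the binding of a factor.

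Among the catalytic subunits, Polr1a and Polr1b (the largest and second-largest subunits, which form the active centre) were sparse. Polr1a had 87 and 30 UMIs in Mat KO libraries against 138 and 163 in WT libraries, or 4.40 and 1.49 against 5.16 and 6.97 UMIs per 100000 ERCC UMIs. Both Mat KO libraries lay below both WT libraries, Mat KO replicate 2 far below. Polr1b had 49 and 7 UMIs against 83 and 75, or 2.48 and 0.349 against 3.10 and 3.21 per 100000 ERCC UMIs. Again both Mat KO values were the lower ones, and Mat KO replicate 2 had Polr1b in 4 of 48 cells. In CPM the genotypes overlapped for both genes, and edgeR gave log2 fold changes of -0.55 (SE 0.58, adjusted p = 0.877) for Polr1a and -0.70 (SE 0.88, adjusted p = 0.906) for Polr1b. Leaving out Mat KO replicate 1 moved Polr1a to -1.42, and leaving out Mat KO replicate 2 moved it to -0.02 and Polr1b to 0.08. Exons of Polr1a (chromosome 6, 71909053 to 71984935, plus strand, GRCm38) overlap those of the antisense gene Gm26628, and use of strand in counting was not given in the sources used here.

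Polr1c and Polr1d encode a pair of small subunits shared with RNA polymerase III, on which the enzyme assembles. Polr1c had 54.7 and 88.8 CPM in Mat KO libraries against 59.7 and 63.0 in WT libraries, with both WT libraries between the Mat KO ones. Its log2 fold change was 0.26 (SE 0.42, adjusted p = 0.932 by edgeR) and turned to -0.28 when scaled to the spike-ins and to -0.16 without Mat KO replicate 2. Its upstream window was the one with the CCGGAAG letters. Polr1d was the best covered of the 5 subunit genes, with 304 and 276 UMIs in Mat KO libraries against 869 and 695 in WT libraries. It had 160 and 156 CPM in Mat KO libraries against 273 and 214 in WT libraries, so that both Mat KO libraries were lower. Per 100000 ERCC UMIs it had 15.4 and 13.7 in Mat KO libraries against 32.5 and 29.7 in WT libraries, where each genotype's libraries lay close together. Its log2 fold change was -0.59 (SE 0.28, adjusted p = 0.654) by edgeR with totals and -1.10 (SE 0.31, adjusted p = 0.121) with spike-in scaling, and neither passed. Polr1d UMIs were found in 32 of 44 and 33 of 48 cells in Mat KO libraries against 43 of 48 and 41 of 48 in WT libraries. After thinning each cell to 8800 UMIs the shares were 69.2% and 63.4% against 80.4% and 70.5%, still without overlap. In lineage-low cells Polr1d had 184 and 139 CPM in Mat KO libraries against 279 and 189 in WT libraries. The gene lies on chromosome 5, 147077050 to 147111597, plus strand.

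Polr1e, whose product is one of the polymerase I-specific subunits that aid initiation, had the lowest ratio of Mat KO to WT among the 10 genes. It had 27 and 19 UMIs in Mat KO libraries against 124 and 96 in WT libraries, or 14.2 and 10.7 CPM against 39.0 and 29.5. Both Mat KO libraries were below both WT libraries. Its log2 fold change was -1.42 (SE 0.69, adjusted p = 0.673 by edgeR), and 1 cell of WT replicate 2 held 62.5% of that library's UMIs. Per 100000 ERCC UMIs it had 1.36 and 0.946 in Mat KO libraries against 4.63 and 4.11 in WT libraries. In thinned cells the share with a Polr1e UMI was 10.3% and 7.32% for Mat KO, and 15.2% and 4.55% for WT, so the genotypes overlapped.

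For the initiation factors the libraries were ordered otherwise than for Polr1d and Polr1e. Ubtf had 170 and 87.6 CPM in Mat KO libraries against 91.1 and 133 in WT libraries, with the highest and the lowest value both in Mat KO. Its log2 fold change was 0.23 (SE 0.39, adjusted p = 0.936 by edgeR), -0.29 with spike-in scaling and -0.31 without Mat KO replicate 1. In that library, which held the most granulocyte and monocyte marker UMIs, 1 cell had 71 of the 323 Ubtf UMIs. Over cells above the limit for those markers (10, 3, 2 and 3 cells) Ubtf had 235 and 168 CPM in Mat KO libraries against 10.5 and 250.1 in WT libraries. Over B-lymphoid marker cells (6, 3, 5 and 1) it had 259 and 0 CPM against 113 and 157, so neither class had a like level in all libraries. In lineage-low cells it stood at 115 and 92.4 CPM in Mat KO libraries against 90.4 and 116 in WT libraries. Rrn3 had 52.1 and 61.1 CPM in Mat KO libraries against 27.0 and 40.0 in WT libraries, so that besides Rn45s it was the only one of the 10 genes with both Mat KO libraries above both WT libraries. Its log2 fold change was 0.79 (SE 0.49, adjusted p = 0.743 by edgeR). In lineage-low cells Rrn3 had 50.9 and 54.1 CPM in Mat KO libraries against 31.0 and 40.8 in WT libraries. Per 100000 ERCC UMIs Rrn3 had 5.0 and 5.38 in Mat KO libraries against 3.21 and 5.56 in WT libraries, which overlap. Rrn3 was found in 21 of 44 and 19 of 48 Mat KO cells against 13 of 48 and 19 of 48 WT cells. It was the gene with the CACGTG letters upstream.

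The nucleolar protein genes were well covered. Ncl lies on chromosome 1, 86344719 to 86359400, and Npm1 on chromosome 11, 33152287 to 33163206, both on the minus strand. Ncl had 3502 and 2719 UMIs in Mat KO libraries against 6186 and 7784 in WT libraries, and 1843 and 1537 CPM against 1943 and 2392. Per 100000 ERCC UMIs it had 177 and 135 in Mat KO libraries against 231 and 333 in WT libraries. Both Mat KO libraries were lower on each scale, with log2 fold changes of -0.33 (SE 0.18, adjusted p = 0.720) with totals and -0.85 (SE 0.22, adjusted p = 0.0924) with spike-in scaling by edgeR. Npm1 had 2783 and 2659 UMIs in Mat KO libraries against 5955 and 6585 in WT libraries, and 1464 and 1503 CPM against 1871 and 2024. Per 100000 ERCC UMIs it had 141 and 132 in Mat KO libraries against 222 and 282 in WT libraries. Its log2 fold changes were -0.36 (SE 0.17, adjusted p = 0.669) with totals and -0.89 (SE 0.20, adjusted p = 0.0645) with spike-in scaling, and neither passed. In lineage-low cells Npm1 had 111 and 128 per 100000 ERCC UMIs in Mat KO libraries against 205 and 245 in WT libraries, and Ncl 132 and 134 against 207 and 271. With totals the log2 fold changes in lineage-low cells were -0.17 for Ncl (adjusted p = 0.897 by edgeR) and -0.24 for Npm1 (adjusted p = 0.818), and without WT replicate 2 that of Ncl over all kept cells was -0.18. Cell cycle markers (7 of 7 detected) were also lower in lineage-low cells of Mat KO, at 0.0574% and 0.0537% of UMIs against 0.102% and 0.126% in WT libraries, while over all kept cells they overlapped, at 0.190% and 0.136% against 0.154% and 0.178%, and their part in these results was not tested. B-lymphoid marker cells held more of both in 3 of the 4 libraries: Ncl reached 3856, 3104 and 3820 CPM there in Mat KO replicate 1 and WT replicates 1 and 2, where lineage-low cells had 1663, 1811 and 2113, but 1175 against 1718 CPM in Mat KO replicate 2. Npm1 has processed copies in the genome, and the counting of reads from such copies was not given in the sources used here.

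**Figure D3:**
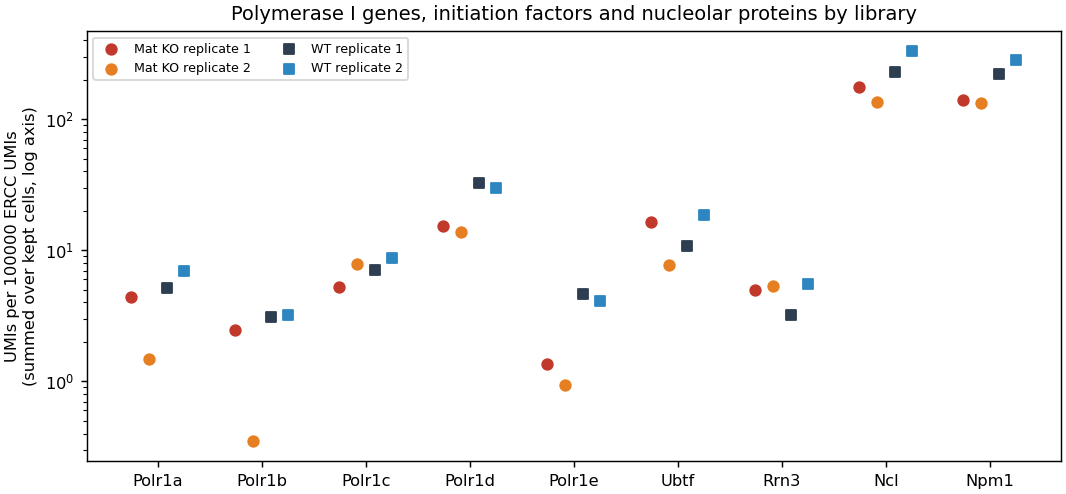
UMIs per 100000 ERCC UMIs (log axis), summed over the kept cells of a library, for the 9 genes other than Rn45s, with circles for Mat KO and squares for WT. Both Mat KO libraries lie below both WT libraries for Polr1a, Polr1b, Polr1d, Polr1e, Ncl and Npm1, and overlap with WT for Polr1c, Ubtf and Rrn3.

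Over the 9 genes other than Rn45s, 6 had both Mat KO libraries below both WT libraries per ERCC UMI (exact permutation p = 0.333 each, 0.556 adjusted over the 10 genes). Of all 10663 genes tested 42.5% did so, and 6.81% had both Mat KO libraries above. In lineage-low cells the count was also 6, with Ubtf in place of Polr1b. As medians over cells it was 4 (Polr1d, Ubtf, Ncl and Npm1), where the median of each other gene was 0 in at least 3 libraries. Per ERCC UMI, the share of all genes was taken for sums over all kept cells only. Neither of these further counts therefore has such a share to be read against. In CPM 4 of the 9 genes were lower without overlap (Polr1d, Polr1e, Ncl and Npm1), against 21.3% of all genes, and Rrn3 was higher, against 17.8%. The median log2 fold change of the 9 genes was -0.36 with totals, where that of all genes was -0.01. With spike-in scaling it was -0.88, where that of all genes was -0.52. None of the 9 genes passed edgeR's test in either scaling, and with spike-in scaling 0.441% of all genes passed. The share of cells with a UMI was lower in both Mat KO libraries for Polr1a, Polr1b, Polr1d and Ubtf and higher for Polr1c, against 42.4% and 4.63% of all genes. In thinned cells it was lower for Polr1a, Polr1b, Polr1d and Npm1 and again higher for Polr1c, against 21.2% and 15.9%. Npm1 was near its ceiling there, missing from 1 of 39 and 1 of 41 thinned cells for Mat KO, and from 1 of 46 and 0 of 44 for WT. Its order there thus rests on single cells.

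**Figure D4:**
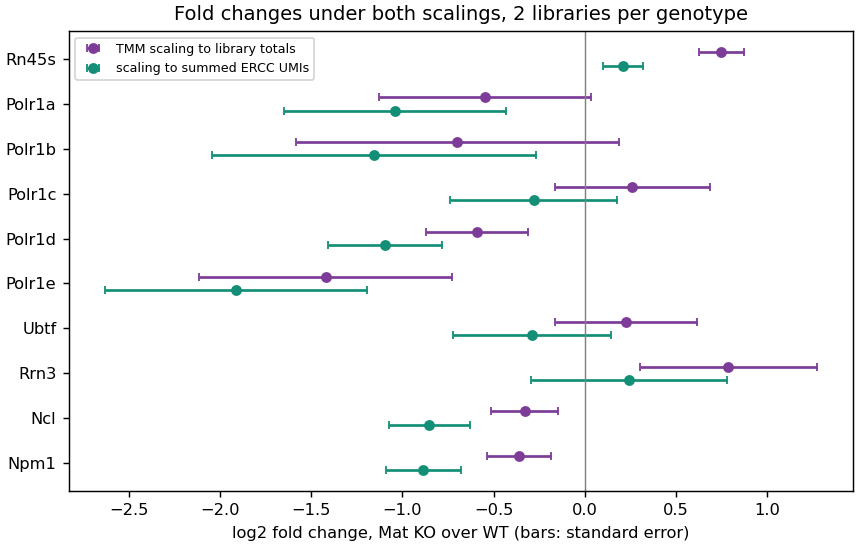
Log2 fold changes of Mat KO over WT by edgeR for the 10 genes, scaled to library totals with TMM factors (upper point of each pair) or to summed ERCC UMIs (lower point), with bars of 1 standard error. Rn45s lies at 0.75 and 0.21, Npm1 at -0.36 and -0.89 and Polr1e at -1.42 and -1.91.

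The other genes of the pathway were read from lists. All 8 further subunits had a row: Twistnb, Cd3eap and Znrd1, which complete polymerase I, and Polr2e, Polr2f, Polr2h, Polr2k and Polr2l, which it shares with polymerases II and III. With totals 6 of these 8 were lower and 2 higher in Mat KO, none past the test (median log2 fold change -0.09), where 50.6% of all genes were lower. With spike-in scaling all 8 were lower, where 76.5% of all genes were, and again none passed. The lowest p belonged to Polr2f, with 66.8 and 87.1 CPM in Mat KO libraries against 118 and 151 in WT libraries (log2 fold change -0.77 with an SE of 0.35, and adjusted p = 0.642 by edgeR). Polr2l stood at -0.54, Polr2e at -0.29, Polr2h at -0.12, Twistnb at -0.07 and Polr2k at -0.01, while Znrd1 stood at 0.11 and Cd3eap at 0.39.

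Of 14 genes for the promoter selectivity factor, termination and rDNA chromatin, 13 were tested, 6 higher and 7 lower, with none past the test. With spike-in scaling 9 of the 13 (69.2%) were lower, where 76.5% of all genes were. Tbp, the TATA-binding protein that also sits in the polymerase I selectivity factor, had 27.9 and 31.7 CPM in Mat KO libraries against 9.42 and 14.4 in WT libraries (log2 fold change 1.35 with an SE of 0.73, and adjusted p = 0.705 by edgeR). Its partner Taf1b stood at 0.86 and the deacetylase gene Sirt1 at 0.78. Among 16 genes of nucleolar assembly and processing 15 were lower and 1 higher, with none past the test. Their median log2 fold change was -0.36, where that of all genes was -0.01. With spike-in scaling 15 were again lower, at a median of -0.89, where that of all genes was -0.52. Nop56, a core protein of the particles that methylate rRNA, had 206 and 193 CPM in Mat KO libraries against 269 and 324 in WT libraries (log2 fold change -0.54 with an SE of 0.26, and adjusted p = 0.680 by edgeR). Nolc1, a nucleolar chaperone of these particles, stood at -0.54 and Surf6 at -1.10, where WT replicate 1 had 82.3 CPM and the other libraries 23.2 to 25.8. Of the other structural RNAs, Rpph1 (the RNA of RNase P) had 16 and 21 UMIs in Mat KO libraries against 85 and 89 in WT libraries (log2 fold change -1.38 with an SE of 0.76, and adjusted p = 0.718 by edgeR). Rn4.5s had 1 and 57 UMIs against 22 and 23, so its Mat KO libraries lay on both sides of WT.

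Within libraries, cells rich in Rn45s per ERCC UMI also tended to be rich in nucleolar protein transcripts per ERCC UMI. So they were in UMIs of all genes other than Rn45s summed, with a Spearman rho of 0.21 and 0.48 in Mat KO libraries. In WT libraries that rho was 0.58 and 0.60. The Spearman rho of Rn45s with Ncl was 0.33 and 0.41 in Mat KO (44 and 48 cells) and 0.62 and 0.51 in WT libraries (48 cells each), and with Npm1 0.32 and 0.42 in Mat KO libraries, and 0.50 and 0.59 in WT libraries. These points share the spike-in denominator, and a positive rho was the rule: the median of 1687 other genes with a UMI in at least 50% of cells of every library was 0.12 and 0.17 in Mat KO libraries, and 0.27 and 0.37 in WT libraries. In all 4 libraries 7 of the 9 genes had a positive rho, all but Polr1d and Polr1e, which were at -0.09 in Mat KO replicate 2, and 67.8% of the 1687 genes did so. As shares of the UMIs of genes other than Rn45s, none of the 9 genes was positive in all 4 libraries, against 3.79% of the 1687 genes. Ncl then stood at 0.00 and 0.03 in Mat KO libraries, and 0.17 and -0.30 in WT libraries, and Npm1 at 0.16 and 0.16 in Mat KO libraries, and -0.04 and -0.34 in WT libraries. The polymerase subunit gene Polr1c was negative in every library on that scale, from -0.31 to -0.21, as were 23.7% of the 1687 genes. In thinned cells it ran from -0.18 to -0.05, and 15.8% of the 1687 genes were negative in every library there. Centred on the mean of each barcode number, the rho per ERCC UMI was positive in all 4 libraries for 8 of the 9 genes. Ncl (0.31 to 0.64) and Npm1 (0.26 to 0.41) were among them. The spike-in denominator is still shared there. The centred rho of the other genes was not taken, so this count has no share of all genes to be read against.

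**Figure D5:**
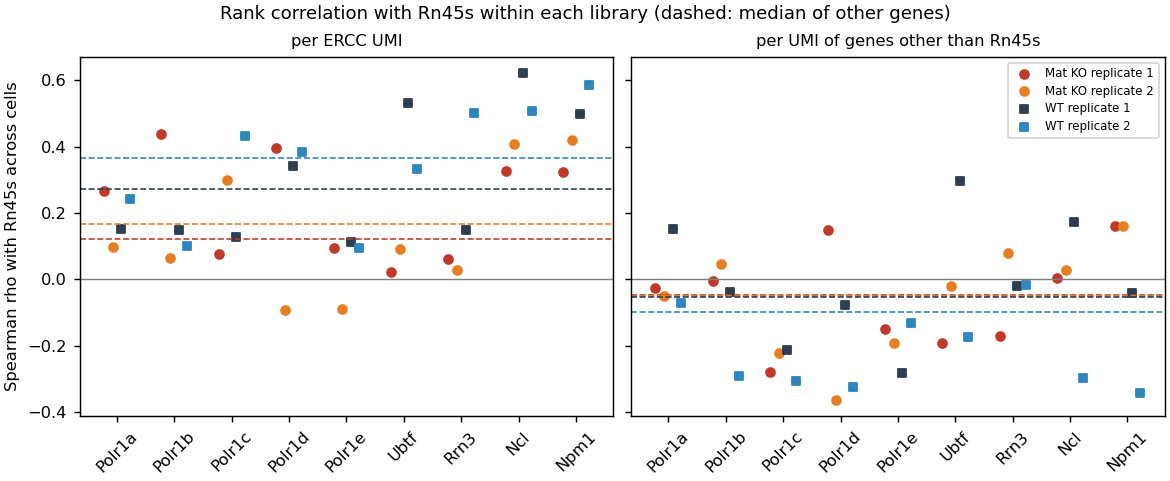
Spearman rho across cells between Rn45s and each of the 9 other genes, 1 point per library, as UMIs per ERCC UMI (left) and per UMI of genes other than Rn45s (right), with dashed lines at the median of 1687 other genes in each library. On the left Ncl and Npm1 lie above the dashed line of their library, at 0.32 to 0.62, and on the right they spread from -0.34 to 0.17. UMIs of all genes other than Rn45s summed, not drawn, had a rho of 0.21 to 0.60 per ERCC UMI.

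Genes most like each of the 3 best covered members were sought by the mean over the 4 libraries of the within-library rho of their UMI shares, among 1691 genes. For Rn45s these were Ddx5 (mean rho 0.33, range 0.14 to 0.43), S100a8 (0.30, range 0.08 to 0.39), Malat1 (0.28), Kdm6b (0.28) and Angpt1 (0.24), where the median gene had -0.06. The Rn45s share fell with depth in every library (rho -0.68 to -0.78), and no ranking was made at equal depth. Npm1 and Ncl ranked 531st and 569th for Rn45s. For Npm1 they were the translation factor gene Eif5a (0.42), Mif (0.38), Naca (0.38), Nop58 (0.37) and Hsp90ab1 (0.36), and for Ncl they were Mif (0.46), Ran (0.40), Nop56 (0.39), Nop58 (0.38) and Cct5 (0.38). Nop58, the partner of Nop56 in box C/D particles, was thus near both nucleolar protein genes. The median gene had a mean rho of 0.07 with Npm1 and 0.06 with Ncl. The share of UMIs in 7 cell cycle genes correlated with that of Ncl at 0.18 and 0.31 in Mat KO libraries, and 0.29 and 0.45 in WT libraries, and with that of Rn45s at -0.12 and 0.06 in Mat KO libraries, and -0.00 and -0.24 in WT libraries. For Npm1 it was -0.09 and -0.17 in Mat KO libraries, and -0.02 and 0.33 in WT libraries.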

How the data were processed

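The authors deposited UMI counts for each gene symbol and cell barcode, without normalization. Per the submitters' processing notes, TopHat2 2.0.12, HTSeq and mm10 were used, in roles left unnamed; the assignment of reads from repeated loci such as rDNA was not given in the sources used here. Besides genes, each table held 92 ERCC rows and 3 marker rows, which stayed out of gene totals. Cells needed 1000 detected genes, which 188 had. Counts were summed per library and tested with edgeR 4.0.16 (quasi-likelihood, TMM, filterByExpr, genotype as the only term, Benjamini-Hochberg at 0.05, R 4.3.3). A check on simulated counts planted large changes in well covered genes, with less spread than was estimated here. It therefore does not cover sparse genes or small changes. DESeq2 1.42.0 was an alternative. Spike-in scaling used summed ERCC UMIs as library sizes. Values per library had exact two-sided permutation tests. Thinning to 8800 UMIs kept 170 cells and left out 18. The number of libraries limits precision. No doublet caller was run, since cells were picked singly. The 10 genes and the lists were chosen with earlier results of these data known. Genes named besides the 10 were the 3 of smallest p in each pathway list, every further polymerase I subunit with at least 10 UMIs, and the 5 genes most like Rn45s, Npm1 and Ncl. Limits for lineage-low cells were set after seeing the data. Labels tie no replicate number to a shared animal or day, so the numbers were not used as pairs.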

Additional observations from a re-analysis of the deposited data

Results flagged for a closer look

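Barcodes that held no cell (48 in each library) still carried gene UMIs, Rn45s among them, a signal in columns that no comparison used. Gene UMIs there, Rn45s included, numbered 721 and 769 in Mat KO libraries against 1293 and 1164 in WT libraries. Rn45s UMIs there numbered 50 for Mat KO replicate 1, 86 for Mat KO replicate 2, 92 for WT replicate 1 and 86 for WT replicate 2, at most 4, 8, 8 and 6 in a single barcode in that order. Per 100000 ERCC UMIs of the same barcodes this was 3014 and 5162 in Mat KO against 3354 and 4296 in WT, where kept cells had 6223 and 7826 against 5248 and 6889. Of the other 9 genes, Ncl had 1 to 3, Npm1 0 to 5 and Polr1d 0 to 1 UMIs there, and the remaining 6 had 0.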

How the results depend on the processing

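Rn45s by summed counts was higher in Mat KO under all 15 alternatives, and the number of the 10 genes past the threshold, 0 in the main test, became 1 (Rn45s) in 7 of them. It passed in DESeq2 (log2 fold change 0.765), with no filter on low counts (0.739), with the replicate block (0.731, adjusted p = 1.21e-09), in lineage-low cells (0.937) and in thinned cells (0.662). Leaving out 1 library moved it from 0.478 to 0.965 and the number of genes past the threshold from 0 to 1. It passed without either Mat KO library, when the lone Mat KO library was assumed to vary like WT, and did not without either WT library. Adjusted p over the alternatives ran from 1.89e-16 to 0.360, the last with spike-in scaling. Over all genes, edgeR called 8 higher and 0 lower, DESeq2 98 and 22, the fit with the replicate block 90 and 19, the fit with no filter 119 and 30, spike-in scaling 12 and 35, lineage-low cells 4 and 1, thinned cells 5 and 1, cells with 2000 genes 5 and 0, and the fit without each gene's leading cell 0 and 0; leaving out 1 library gave 16 to 100 higher and 1 to 23 lower. The block changed no other call among the 10 genes, and deviations of same-numbered libraries, which the labels do not pair, correlated at -0.017 over genes. With the block and with no filter, the Rn45s log2 fold change lay near the 0.749 of the main test. The lower adjusted p of these fits therefore came from how spread was estimated, not from a larger difference. Per ERCC UMI, the Rn45s log2 ratio of 0.170 ran from -0.073 (without Mat KO replicate 2) to 0.393 (without WT replicate 2), with -0.024 without WT replicate 1, so its direction rests on single libraries. The count of genes positively correlated with Rn45s in all 4 libraries, 7 per ERCC UMI, was 0 as shares of UMIs and 0 in thinned cells. Of 191 single values of the other 9 genes 10 turned. With spike-in scaling these were Polr1c (-0.279) and Ubtf (-0.288). With totals, leaving out 1 library moved Polr1b from -2.58 to 0.079 and Polr1c from -0.156 to 0.573, both turning without Mat KO replicate 2, and Ubtf from -0.315 to 0.609, turning without Mat KO replicate 1 or WT replicate 1 (-0.032). Per ERCC UMI it moved Ubtf from -0.928 to 0.153, turning without Mat KO replicate 2 and without WT replicate 2 (0.150), and Rrn3 from -0.100 (without WT replicate 1) to 0.692; Rrn3 also turned in lineage-low cells (-0.089). The cause was not tested. The range of depths and the centring on barcode numbers were chosen after seeing the data. Polr1a, Polr1b and Polr1e, with 7 to 163 UMIs per library, are limited by depth.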
